A study of Homo sapiens with 4 samples.

Results

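The genes described here build, move along or guard the primary cilium: subunits of intraflagellar transport (IFT) complexes A and B, the motors that carry them, the BBSome, the transition zone and 3 further cilium proteins. They were named as a list of 47 genes, and each was matched to probe sets whose annotation gives exactly that symbol. Of the 47, 44 had a probe set of their own among 17958 genes tested. IFT20, BBS1 and B9D2 are covered only by probe sets that name a further gene as well, and they were not analysed here. Total RNA of HCT116, a long-established cell line from a human colorectal carcinoma, was hybridised to 4 Affymetrix arrays. The 2 treated samples were cells given 5-aza-2'-deoxycytidine (called 5aza here; a nucleoside drug that traps DNA methyltransferases once it is part of the DNA) at 1 µM from 24 hours after seeding, dosed again at 48 hours and harvested at 72 hours. The 2 vehicle samples came from the same line, given vehicle without the drug on the same schedule and harvested at 72 hours. The labels do not name the vehicle. Samples carry the numbers 1 and 2 within a group, with no word on separate cultures, so the spread behind each p-value may be technical.

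A cilium makes no protein of its own and grows at its tip, so its parts are carried along the axoneme by IFT trains. Kinesin-2 motors move trains toward the tip and dynein-2 moves them back; IFT-B is tied mainly to outward traffic, IFT-A to return traffic and to the entry of membrane proteins. The BBSome rides on the trains as an adaptor for membrane cargo, and the transition zone is the gate of tectonic, MKS and NPHP proteins at the cilium's base. Inherited loss of these genes causes ciliopathies such as Bardet-Biedl and Joubert syndromes. The arrays measured RNA only, and whether the cells carried cilia was not measured.

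Cilium genes fell in cells given 5aza far more often than they rose. Of the 44 tested, 25 fell and 2 rose (limma, Benjamini-Hochberg adjusted p under 0.05 over all genes), and 17 did not pass the test. In RNA of whole cultures, fewer cells that express a gene and less RNA per cell cannot be told apart. The falls make up 56.8% of the list, against 15.6% of all genes that fell and 12.4% that rose. By role, 5 of 6 IFT-A genes fell, 8 of 11 of IFT-B, 8 of 9 of the transition zone and 2 of 6 of the BBSome, and none of the 4 kinesin-2 genes fell. The median log2 fold change, treated minus vehicle, was -0.48 for the list and -0.07 for all genes. Both treated arrays lay below both vehicle arrays for 30 of the 44 genes and above them for 4; over all genes these shares were 39.5% and 26.3%. The counts depend on the arrays used: 12 genes fell without vehicle replicate 1 (6.66% of all genes), 14 without vehicle replicate 2 (6.89%), 18 without treated replicate 2 (14.6%) and 28 without treated replicate 1 (18.9%). With the arrays centred on housekeeping genes, which moved the median of all genes by 0.10 on the log2 scale, 15 members fell and 3 rose, beside 10.6% of all genes falling and 14.6% rising; the share of rises among all calls went from 44.4% to 57.8%. Housekeeping centring shifts every gene of an array alike, so the list's median minus that of all genes stayed at -0.40 by construction. That difference was -0.30 without treated replicate 2.

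**Figure D1:**
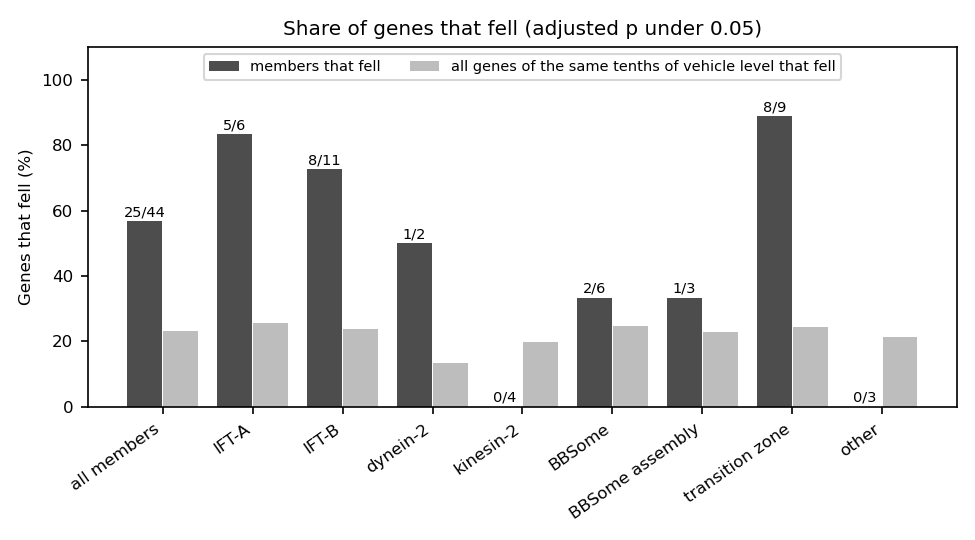
Percentage of tested genes that fell with 5aza (limma, adjusted p under 0.05), for all 44 cilium genes and for each role group (dark bars, starting at 0, with counts above them), beside the percentage that fell among all genes of the same bands of vehicle level (grey bars, averaged over the group's genes). IFT-A, IFT-B and the transition zone stand at 83.3%, 72.7% and 88.9%, while their grey bars lie between 23.8% and 25.7%. The BBSome stands at 33.3%, beside 24.6%, and kinesin-2 at 0%, beside 19.8%.

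Since moderately bright genes fell more often than dim ones in these cells, the list was set against genes of like vehicle level. When all genes were split by vehicle level into 3 bands of 5986, the low band (levels up to 5.37) held 2 cilium genes, the middle band (5.37 to 8.53) held 27 and the high band 15. In the middle band 16 of the 27 cilium genes fell, beside 22.0% of all genes of that band, and in the high band 9 of 15, beside 21.1%. The 2 cilium genes of the low band, DYNC2H1 and KIF17, were the 2 that rose; of all genes in that band 16.9% rose and 3.59% fell. With 10 narrower bands, each cilium gene was set against the median of its own band, and the median of these differences was -0.37 on the log2 scale. The same value was -0.65 for IFT-A, -0.56 for IFT-B, -0.69 for the transition zone, -0.14 for the BBSome and 0.32 for kinesin-2. Differences between the role groups were not tested, because the genes of a group are not replicates of the treatment.

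**Figure D2:**
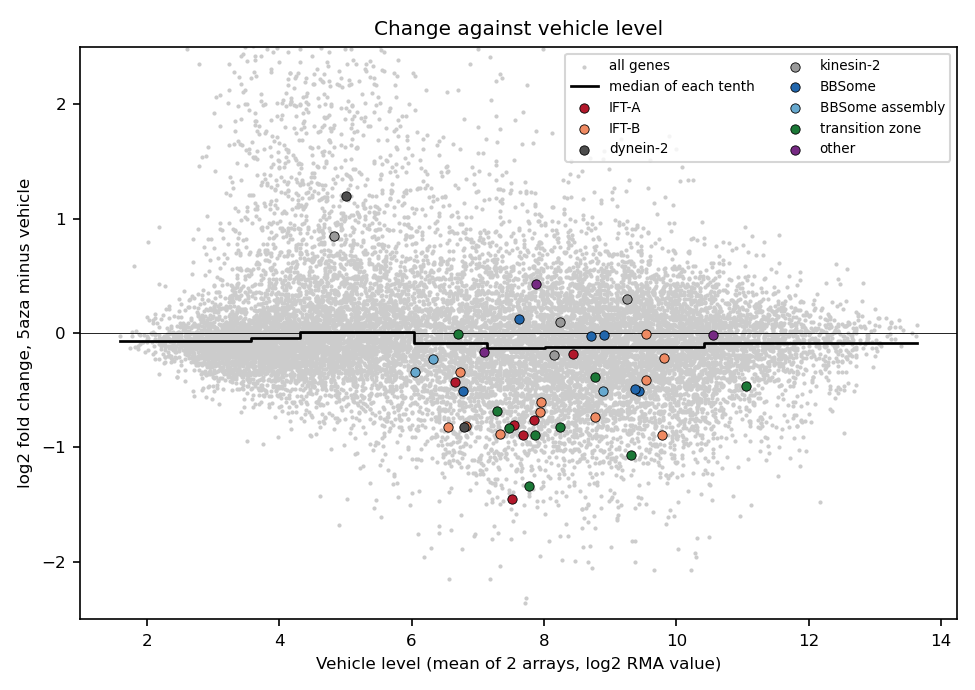
log2 fold change (5aza minus vehicle, y axis) against vehicle level (mean of 2 arrays, log2 RMA value, x axis) for all genes (grey), with the median of each of 10 bands of vehicle level as a step line and the 44 cilium genes coloured by role. Most IFT-A, IFT-B and transition zone genes lie below the step line, and the only 2 members under a level of 5.37 lie above it; 226 genes lie beyond the axis limits of 2.5 in either direction.

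The promoters of these genes are shown because many of the genes moved together and because the drug acts on CpG methylation, which was not measured here. RefSeq windows (GRCh38.p14) of 300 bases, 250 before the annotated start and 50 from it on, matched 40 of the 44 genes by symbol and gene ID; BBS9, IFT22, TCTN2 and WDR35 had none. The windows were CpG-rich: the median held 26.5 CpG dinucleotides, against 22 for the 13864 tested genes with a window, and 37 of 40 (92.5%, against 66% of those genes) had an observed to expected CpG ratio above 0.6. Over all genes with a window, that share was 77% of those that fell, 64.4% of those that rose and 63.8% of those not called. These shares were not matched for vehicle level. The 23 windows of cilium genes that fell had a median of 27 CpG and those of the 15 uncalled cilium genes 26. The rising genes DYNC2H1 and KIF17 had 33 and 43. Low CpG counts were found at the falling genes TTC8 (5) and CC2D2A (7). RFX factors are known to bind the X-box motif at cilium genes, so a palindromic form was searched on both strands: GTNNCC and GGNNAC with 0 to 3 bases between. It occurred in 8 of 40 cilium windows (20%), in 4.28% of the windows of tested genes and in 3.81% of all 27305 windows in the RefSeq table. Its 6-base arm GTTGCC, on either strand and overlapping the palindrome where that holds it, occurred in 17 of 40 (42.5%) against 12.9% and 12.2%. Of the 8 genes with the palindrome, 7 fell (AHI1, IFT122, IFT56, IFT57, TCTN1, TCTN3 and WDR19) and ARL6 was not called; of the 32 without it, 16 fell. Over all genes with a window, 16.3% of the 594 with the palindrome and 16.1% of the 13270 without it fell. For the 6-base arm the split of cilium genes went the other way. With it 9 of 17 fell (52.9%) and 2 rose, and without it 14 of 23 fell (60.9%) and 0 rose. Among all genes with a window, 17.9% of those with the arm fell and 15.9% of those without it. A match describes these letters and shows no binding.

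Stretches of up to 60 bases, all upstream of the start, are printed here for the genes whose palindrome lies upstream of it, with the motif in capitals, and for the 2 rising genes, with the 6-base arm in capitals.
AHI1, fell, chr6:135497772-135497831, minus strand: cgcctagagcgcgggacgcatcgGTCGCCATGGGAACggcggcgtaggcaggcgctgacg
IFT56, fell, chr7:139133741-139133777, plus strand: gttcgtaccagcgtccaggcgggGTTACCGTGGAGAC
IFT57, fell, chr3:108222425-108222477, minus strand: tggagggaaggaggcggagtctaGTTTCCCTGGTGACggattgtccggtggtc
TCTN3, fell, chr10:95694107-95694165, minus strand: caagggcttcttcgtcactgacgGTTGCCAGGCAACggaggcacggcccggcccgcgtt
WDR19, fell, chr4:39182443-39182502, plus strand: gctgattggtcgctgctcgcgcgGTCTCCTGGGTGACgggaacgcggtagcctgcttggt
ARL6, not called, chr3:97764364-97764421, plus strand: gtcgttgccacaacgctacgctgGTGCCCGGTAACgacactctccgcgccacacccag
DYNC2H1, rose, chr11:103109348-103109407, plus strand: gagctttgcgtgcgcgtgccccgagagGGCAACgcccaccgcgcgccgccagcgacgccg
KIF17, rose, chr1:20718037-20718096, minus strand: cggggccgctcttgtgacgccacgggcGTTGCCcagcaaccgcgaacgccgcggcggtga
The first base of the motif lies 68 bases before the annotated start in AHI1, 14 in IFT56, 30 in IFT57 and 215 in TCTN3. It lies 63 bases before the start in WDR19 and 134 in the uncalled ARL6. The first base of the arm lies 51 bases before the start in DYNC2H1 and 62 in KIF17.

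IFT-A, the complex of return traffic, lost RNA across its subunits: 5 of 6 fell, and the median log2 fold change was -0.78. IFT140, a subunit of the complex's core, read 7.43 and 7.60 on the vehicle arrays and 6.21 and 5.92 on the treated arrays (log2 RMA levels). Its log2 fold change of -1.45 (SE 0.14, adjusted p = 6.25e-04), or 2.74-fold lower, was the largest fall of the list. TTC21B, an outer subunit, went from 7.81 and 7.57 to 6.99 and 6.62 (1.85-fold lower, adjusted p = 0.00830). Both genes had treated arrays well below the vehicle arrays, with treated array 2 the lowest. WDR35 went from 7.64 and 7.45 to 6.99 and 6.52 (1.74-fold lower, adjusted p = 0.0166), and the core subunit IFT122 from 7.79 and 7.91 to 7.34 and 6.84 (1.70-fold lower, adjusted p = 0.0200). The spread between the treated arrays of WDR35 and IFT122 (SD 0.33 and 0.35) was wider than between their vehicle arrays (SD 0.13 and 0.09). WDR19, also of the core, showed the smallest of the 5 falls, from 6.66 and 6.64 to 6.29 and 6.15 (1.35-fold lower, adjusted p = 0.0351). IFT43, a small outer subunit, did not pass (8.33 and 8.56 against 8.23 and 8.30, log2 fold change -0.18, adjusted p = 0.357). All 6 genes had both treated arrays below both vehicle arrays, as did 39.5% of all genes. Without vehicle replicate 1 a single fall, IFT140, was called and without vehicle replicate 2 there were 3; the group's median was -1.02 without treated replicate 1 and -0.54 without treated replicate 2.

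**Figure D3:**
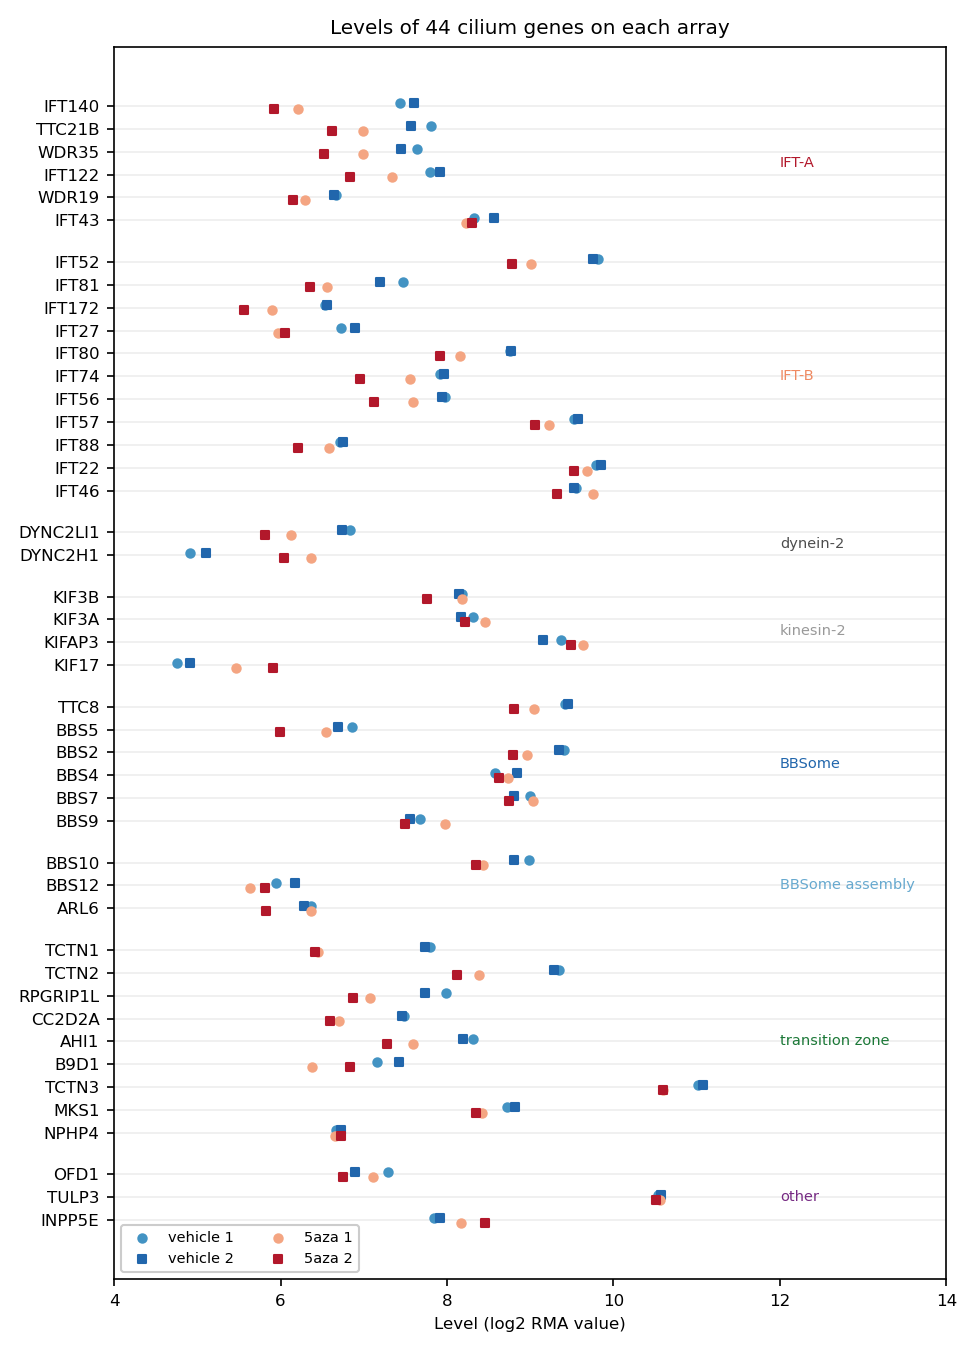
log2 RMA level of each of the 44 cilium genes on the 2 vehicle arrays (blue) and the 2 treated arrays (orange and red), grouped by role and ordered by fold change within each role. The red squares (treated array 2) lie left of the orange circles (treated array 1) for 37 of 44 genes.

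IFT-B, the larger complex of outward traffic, fell in 8 of 11 measured subunits, with a median log2 fold change of -0.69. IFT52, a scaffold of the complex, went from 9.82 and 9.75 to 9.01 and 8.78 (1.86-fold lower, SE 0.13 on the log2 scale, adjusted p = 0.00324). IFT81, which with IFT74 binds tubulin, went from 7.47 and 7.19 to 6.56 and 6.35 (1.84-fold lower, adjusted p = 0.00574). IFT74 fell too, from 7.91 and 7.96 to 7.55 and 6.95, but its treated arrays lay 0.60 apart on the log2 scale and its adjusted p was 0.0404. IFT172, a large outer subunit, was 1.76-fold lower (6.53 and 6.56 against 5.90 and 5.56), and IFT27, a Rab-like small GTPase needed for the BBSome to leave the cilium, 1.75-fold lower (6.73 and 6.90 against 5.97 and 6.05). IFT80, mutated in a skeletal ciliopathy, was 1.66-fold lower (8.76 and 8.77 against 8.16 and 7.91, adjusted p = 0.00722). In these 5 genes, from IFT52 to IFT80 without IFT74, every alternative scaling, probe set rule and array left out kept the call. Smaller falls were those of IFT56 (7.97 and 7.94 against 7.59 and 7.12, 1.51-fold lower, adjusted p = 0.0391) and IFT57 (9.52 and 9.57 against 9.22 and 9.06, 1.32-fold lower, adjusted p = 0.0458). The calls of IFT56, IFT57 and IFT74 were lost with housekeeping centring and without either vehicle replicate or treated replicate 2. IFT88, a core subunit without which cilia do not form (log2 fold change -0.34), the Rab-like IFT22 (-0.22) and IFT46 (-0.01, groups overlapping) did not pass, with adjusted p of 0.143, 0.235 and 0.984. The log2 fold change of IFT88 was -0.52 without treated replicate 1 and -0.16 without treated replicate 2. Leaving out either vehicle array or treated array 2 gave 5 falls, as did housekeeping centring, and the median was -0.39 without treated replicate 2.

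Among the motors, dynein-2 moved in opposite directions in its 2 measured subunits. Of genes of like vehicle level 13.4% fell and 18.5% rose. Its light intermediate chain DYNC2LI1 read 6.83 and 6.74 in vehicle and 6.13 and 5.81 in treated cells, 1.76-fold lower (SE 0.14 on the log2 scale, adjusted p = 0.00682). The heavy chain DYNC2H1 went from 4.91 and 5.10 to 6.37 and 6.04, 2.30-fold higher (SE 0.15, adjusted p = 0.00193). DYNC2H1 has a further probe set, which read 3.13 and 3.18 in vehicle and 3.54 and 3.47 in treated cells, a log2 difference of 0.35 against 1.20, so the sizes of the probe sets disagree while the direction is shared. Both calls were kept in every alternative scaling, probe set rule and array left out.

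Kinesin-2, with 4 genes, held 1 rise and no fall with all 4 arrays. Of genes of like vehicle level 12.6% rose and 19.8% fell. The subunits of the heterotrimeric motor gave log2 fold changes of 0.10 for KIF3A (SE 0.14, adjusted p = 0.640), -0.19 for KIF3B (SE 0.16, adjusted p = 0.431) and 0.30 for the accessory subunit KIFAP3 (SE 0.13, adjusted p = 0.140), none of which passed. KIF3A and KIF3B had overlapping groups, at 8.31 and 8.17 against 8.46 and 8.22 for KIF3A and 8.18 and 8.14 against 8.18 and 7.76 for KIF3B. The log2 fold change of KIF3B was -0.40 without treated replicate 1 and 0.02 without treated replicate 2. KIF17, a homodimeric motor used in neurons and photoreceptors, rose from 4.76 and 4.91 to 5.47 and 5.91 (1.81-fold higher, SE 0.17 on the log2 scale, adjusted p = 0.0106). It did not pass without vehicle replicate 1 (adjusted p = 0.0564). In that fit DYNC2H1 was the sole member that rose. No detection call comes with these arrays, so it was not determined whether the vehicle levels of KIF17 and DYNC2H1 lie above background.

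**Figure D4:**
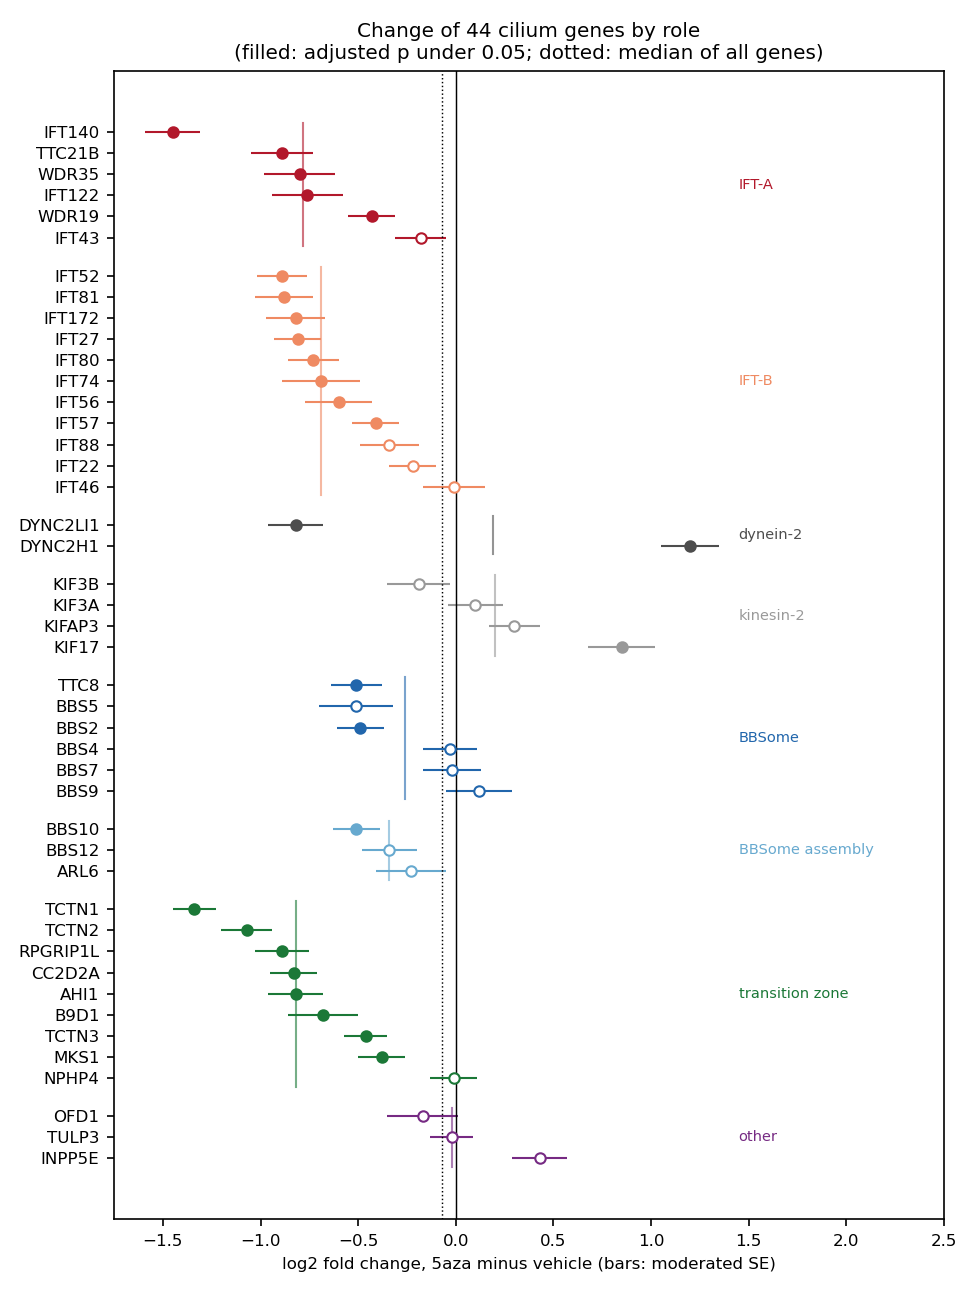
log2 fold change (5aza minus vehicle) of the 44 cilium genes with moderated standard errors, grouped by role; filled points passed an adjusted p of 0.05, open points did not, coloured vertical lines are role medians and the dotted line is the median of all genes (-0.07). IFT-A, IFT-B and the transition zone have medians of -0.78, -0.69 and -0.82, and kinesin-2 one of 0.20.

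In the BBSome 2 of 6 measured subunits fell (33.3%, against 24.6% of genes of like vehicle level) and 0 rose. TTC8, the subunit also called BBS8, went from 9.42 and 9.45 to 9.04 and 8.81 (1.43-fold lower, SE 0.13 on the log2 scale, adjusted p = 0.0262), and BBS2, a core subunit, from 9.40 and 9.34 to 8.96 and 8.79 (1.41-fold lower, SE 0.12, adjusted p = 0.0241). BBS5, which binds phosphoinositides, had a like value, 1.42-fold lower (6.86 and 6.69 against 6.55 and 5.99), but its treated arrays lay 0.56 apart on the log2 scale and it did not pass (adjusted p = 0.0973; 0.00751 without treated replicate 1). BBS4 (-0.03), BBS7 (-0.02) and BBS9 (0.12) had small log2 fold changes and overlapping groups, with SE between 0.14 and 0.17. The subunits measured thus spanned log2 fold changes from -0.51 to 0.12. Of the 3 genes whose proteins assemble or recruit the BBSome, 1 fell (33.3%, against 22.9% at like level). The chaperonin-like BBS10 fell from 8.98 and 8.81 to 8.43 and 8.35 (1.42-fold lower, adjusted p = 0.0232). Its relative BBS12 (log2 fold change -0.34, adjusted p = 0.110) and the small GTPase ARL6, which brings the complex to membranes (-0.23, adjusted p = 0.403), did not pass; BBS12 did with repeated quantile normalization (0.0482) and ARL6 without treated replicate 1 (0.0261). Neither BBSome fall was called with housekeeping centring, without vehicle replicate 1, without vehicle replicate 2 or without treated replicate 2. BBS10 was not called in the first 3 of these. The BBSome median of -0.26 became -0.11 without treated replicate 2, -0.37 without treated replicate 1 and -0.16 with housekeeping centring.

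In the transition zone 8 of 9 genes fell, with a median log2 fold change of -0.82. The tectonics, glycoproteins of the gate, fell in all 3 members. TCTN1 went from 7.80 and 7.74 to 6.45 and 6.41 (log2 fold change -1.34, 2.54-fold lower, SE 0.11, adjusted p = 3.16e-04), and TCTN2 from 9.35 and 9.29 to 8.38 and 8.12, 2.10-fold lower (SE 0.13, adjusted p = 0.00178). TCTN3 fell by less, from 11.02 and 11.08 to 10.59 on both treated arrays (1.37-fold lower, adjusted p = 0.0249). The TCTN3 call was lost with housekeeping centring and without either vehicle replicate. The TCTN1 groups lay far apart relative to the spread of their arrays (vehicle SD 0.04, treated SD 0.03). RPGRIP1L, a scaffold between the NPHP and MKS modules, went from 7.99 and 7.74 to 7.07 and 6.87 (1.86-fold lower, adjusted p = 0.00462). CC2D2A, a C2-domain protein of the MKS module, went from 7.48 and 7.46 to 6.70 and 6.59 (1.77-fold lower, adjusted p = 0.00287), and AHI1, the Joubert syndrome protein jouberin, from 8.31 and 8.19 to 7.59 and 7.28 (1.76-fold lower, adjusted p = 0.00684). In these genes the treated arrays all lay below the vehicle arrays. The B9-domain proteins B9D1 (7.16 and 7.42 against 6.38 and 6.84, 1.60-fold lower, adjusted p = 0.0332) and MKS1 (8.72 and 8.82 against 8.42 and 8.35, 1.31-fold lower) fell too. For B9D1 the call was lost with housekeeping centring and without either vehicle replicate or treated replicate 1. MKS1 was the called member nearest the threshold (adjusted p = 0.0492), and its call was lost with housekeeping and median centring, with repeated quantile normalization and without either vehicle replicate or treated replicate 2. NPHP4, a partner of RPGRIP1L, was the exception, at 6.67 and 6.73 in vehicle and 6.65 and 6.73 in treated cells (log2 fold change -0.01, SE 0.12). The transition zone had 5 falls without vehicle replicate 1, without vehicle replicate 2 and with housekeeping centring, and 7 without either treated replicate.

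Of the 3 remaining members none passed. TULP3, which with IFT-A brings receptors into the cilium, read 10.53 and 10.57 in vehicle and 10.56 and 10.51 in treated cells (log2 fold change -0.02, SE 0.11). OFD1, a protein of centrioles and their satellites, had overlapping groups (log2 fold change -0.17, SE 0.18). INPP5E, the phosphatase that sets the lipid content of the ciliary membrane, was the uncalled member nearest the threshold, at 7.84 and 7.91 against 8.17 and 8.46 (log2 fold change 0.43, SE 0.14, adjusted p = 0.0569). It passed as higher with housekeeping centring (adjusted p = 0.0481), repeated quantile normalization (0.0424) without the dimmest genes (0.0409) and without treated replicate 1 (0.0152), and not without any of the other arrays (0.134 to 0.280).

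The treated arrays were unequal for this list. Treated array 2 was below treated array 1 for 37 of 44 genes (84.1%, against 51.1% of all genes), with a median difference of -0.23 against -0.01. Between the vehicle arrays 23 of 44 genes were lower on array 2 (52.3%, against 47.3%). Measured against the vehicle mean, the list's median was -0.38 on treated array 1 and -0.51 on treated array 2, so both arrays lay below vehicle. For IFT-A the values were -0.54 and -1.02, for IFT-B -0.39 and -0.83, and for the transition zone -0.77 and -0.88. With treated array 1 alone against vehicle, 18 of the 44 genes fell, beside 14.6% of all genes; in this fit the lone treated array is assumed to vary as the vehicle arrays do.

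The rest of the cilium machinery, taken from lists of related genes, held falls as well. Of 18 further transition zone and inversin compartment genes 8 fell (44.4%, against 22.9% of genes of like vehicle level) and 0 rose by limma (0%, against 11.5%). The falls included the membrane proteins TMEM17 (mean 7.70, SD 0.14, against 5.96, SD 0.23, n = 2 each, limma adjusted p = 3.68e-04) and TMEM218 (9.43 and 9.23 against 7.79 and 7.22, adjusted p = 9.83e-04) and by INVS, which defines the inversin compartment (8.43 and 8.49 against 7.55 and 7.54). Their log2 fold changes were -1.74, -1.82 and -0.91. Of 11 further IFT and dynein subunits 4 fell (36.4%, against 19.3%) and 1 rose (9.09%, against 7.54%). The dynein-2 intermediate chain DYNC2I1 (log2 fold change -0.93, adjusted p = 0.00296) and the IFT-B subunit CLUAP1 (-0.70, adjusted p = 0.00944) were among the falls. DYNLL1 (0.50), a light chain shared with other complexes, was the gene that rose. It did not pass without vehicle replicate 1 (log2 fold change 0.47) or 2 (0.54). Of 16 further BBS and trafficking genes 6 fell (37.5%, against 21.1%) and 1 rose (6.25%, against 11.7%). Among the falls were the chaperonin-like MKKS (-0.72, adjusted p = 0.00692) and RAB3IP, an activator of RAB8 (-0.74, adjusted p = 0.0119). The rise was of TUB (1.04, adjusted p = 0.00274), a relative of TULP3. When vehicle array 1 was left out these 3 lists had 4, 3 and 0 falls, and when vehicle array 2 was left out 5, 1 and 2; the first had 11 without treated replicate 1. With housekeeping centring there were 7, 2 and 4.

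Genes that start ciliogenesis moved both ways, and those that end it held 4 falls and 1 rise. Among 11 genes of the distal appendages and of ciliary vesicle formation 5 fell (45.5%, against 21.3% of genes of like level) and 3 rose (27.3%, against 12.5%): EHD3 (4.40 and 3.89 against 7.13 and 7.50, 9.03-fold higher) and EHD1 (1.87-fold higher), membrane-shaping proteins of the early ciliary vesicle, and MYO5A, a vesicle motor (1.52-fold higher), against the kinase TTBK2, which frees the mother centriole for cilium growth (log2 fold change -0.65, adjusted p = 0.0147). The falls in this list numbered 2 without vehicle replicate 1, 0 without vehicle replicate 2 and 2 with housekeeping centring. Of 12 genes of disassembly and centriole capping 4 fell (33.3%, against 19.6% at like level) and 1 rose (8.33%, against 10.3%). The falls included KIF24 (log2 fold change -1.26, adjusted p = 8.09e-04) and MPHOSPH9 (-1.01, adjusted p = 0.00111), which help to keep the centriole capped. NEDD9 was the gene that rose (log2 fold change 0.67, adjusted p = 0.0236). Each vehicle array left out gave 2 falls here and 0 rises.

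Of 15 RFX and other transcription factors of cilium genes, 3 fell and 3 rose (20% each); among genes of like level 19.1% fell and 11.9% rose, so the share of falls was near the background. RFX1, RFX2, RFX3 and RFX7 had log2 fold changes of 0.05, -0.07, 0.08 and 0.03 and did not pass (adjusted p between 0.690 and 0.878), while RFX5, better known at MHC class II promoters, fell (-0.68, adjusted p = 0.00894) and RFX6, a factor of pancreatic endocrine cells, rose from 2.68 and 2.71 to 3.72 and 3.31 (adjusted p = 0.00945). RFX4 gave -0.19 (adjusted p = 0.290). The RFX genes other than RFX5 are named here although the naming rule did not pick them. FOXJ1, the motile cilium factor, rose from 5.67 and 5.37 to 7.07 and 7.05 (2.90-fold higher, adjusted p = 4.23e-04) and GLIS3 2.95-fold, whereas MYB, which acts upstream of FOXJ1 in airway cells, fell from 8.43 and 8.51 to 6.48 and 6.49 (adjusted p = 5.82e-05). Of 70 motile cilium and multiciliated cell genes 12 fell (17.1%) and 9 rose (12.9%), with a median log2 fold change of -0.05, near that of all genes. Genes of like level fell in 9.22% and rose in 16.4%. Housekeeping centring gave 9 falls and 11 rises in this list, and the replicate number as a block gave 22 and 11. The axonemal SPAG6 rose from 3.87 and 3.97 to 6.61 and 6.35 (adjusted p = 4.27e-05). MNS1, a protein inside axonemal microtubules, had the lowest log2 fold change of the list (-2.32), from 7.71 and 7.75 to 5.77 and 5.07 (adjusted p = 5.28e-04). Leaving out vehicle array 1 gave 5 falls and 6 rises in that list, leaving out vehicle array 2 gave 3 and 6, leaving out treated array 1 gave 16 and 10, and repeated quantile normalization gave 17 and 10. In the Hedgehog pathway, which signals through the cilium, 2 of 15 genes fell (13.3%) and 1 rose (6.67%), near or below the 13.9% and 16.3% of genes of like level. The receptor SMO (7.64 and 7.73 against 7.02 and 6.98, adjusted p = 0.00566) and the co-receptor CDON (-0.81) fell, the ciliary tip kinesin KIF7 rose (0.82), and the target gene GLI1 had a log2 fold change of 0.22 (adjusted p = 0.267; the rule did not pick it).

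Other groups moved in the same arrays. Proliferation genes fell in 18 of 28 (64.3%, against 18.3% of genes of like level; 8 without vehicle replicate 1, 9 without vehicle replicate 2), and their mean level was 10.49 and 10.44 on the vehicle arrays and 9.95 and 9.88 on the treated arrays; the part of cell cycle state in the falls of cilium genes was not tested. Of 14 epithelial markers of the line 6 fell (42.9%, against 15.7% of genes of like level) and 2 rose (14.3%, against 8.22%). Their log2 fold changes ran from -1.03 to 0.70, with a median of -0.04. The rises numbered 4 with an intensity trend and 0 at an adjusted p under 0.01. The smallest p-values were those of the factor ELF3 (log2 fold change -0.99), the splicing regulator ESRP1 (-1.03) and the tight junction claudins CLDN4 (-0.92) and CLDN3 (-0.75), all of which fell. EPCAM read 11.79 and 11.82 in vehicle and 11.14 and 11.04 in treated cells and KRT8 between 12.99 and 13.24 on the 4 arrays, while the villus protein VIL1 read between 4.22 and 4.79; EPCAM, KRT8 and VIL1 were picked outside the naming rule. Of 33 fibroblast, endothelial and leukocyte markers 12 rose and 1 fell; their mean level went from 4.59 and 4.68 to 5.21 and 5.22, and their part in the falls of cilium genes was not tested. The rises make up 36.4% of that list, against 19.2% of genes of like level. Its smallest p-values belong to the fibroblast genes THY1 (log2 fold change 3.15) and COL6A3 (2.64), the endothelial ENG (2.53) and the T cell gene CD3D (4.74 and 4.91 against 6.59 and 6.65, adjusted p = 1.24e-04). The general leukocyte gene PTPRC, which the rule did not pick, read between 2.93 and 3.20 on the 4 arrays. Pearson's correlation over 33297 probe sets, which are not independent replicates, was 0.995 between vehicle arrays, 0.992 between treated arrays and 0.966 to 0.971 across groups.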

How the data were processed

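The authors deposited a log2 value for every probe set on each array, made with Affymetrix Expression Console and RMA (background correction, quantile normalization and probe set summary), per the submitters' processing notes; versions, probe set definition and build: not given in the sources used here. Quantile normalization hides a change of total RNA per cell, and folds near background are usually compressed. Of 33297 probe sets, 19181 had 1 gene symbol in the platform annotation and 2055 several. The probe set with the highest mean over 4 arrays stood for each of 17958 genes, a choice that mattered for 895. Levels of different probe sets are not comparable as amounts.

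The fit across genes used limma's lmFit and eBayes (limma 3.58.1, R 4.3.3) with no covariate and no filter on dim genes, and two-sided p-values were adjusted over all genes. Standard errors are moderated, and SD is over 2 arrays. No single gene can reach a p below 0.333 by exact permutation of 4 arrays, so calls rest on limma's pooled variance. The number of arrays limits precision. The fit was tested on simulated data. Lists are described by counts and medians and were not tested.

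The members and lists were chosen with earlier results of these data known. Genes were named by rule: the 24 called members with the smallest p, the extremes of each role group and of vehicle level, the members nearest the threshold, and up to 4 genes of each related list by p. IFT57, IFT74 and uncalled members are named beyond it to account for every member. Promoter sequences are RefSeq's.

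Alternatives were the mean of a gene's probe sets, housekeeping and median centring, repeated quantile normalization, leaving out the dimmest genes, an intensity trend, the replicate number as a block, a stricter threshold and each array left out.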

Additional observations from a re-analysis of the deposited data

How the results depend on the processing

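No member's call changed direction in any alternative. Of the 25 falls, 12 were kept in all alternatives other than the stricter threshold (IFT140, IFT27, IFT52, IFT80, IFT81, IFT172, DYNC2LI1, RPGRIP1L, CC2D2A, TCTN1, TCTN2 and AHI1) and 13 were lost in at least 1. Falls numbered 15 with housekeeping centring, 13 at an adjusted p under 0.01 and 12 to 28 with an array left out; rises numbered 1 at the stricter threshold and 1 to 3 with an array left out. The list's median ran from -0.51 to -0.38 with an array left out. A fit with a lone array in a group takes its spread from the other group. With an array left out, the medians ran from -1.02 to -0.54 (IFT-A), -0.83 to -0.39 (IFT-B) and -0.37 to -0.11 (BBSome, which was -0.16 with housekeeping centring). The dynein-2 median of 0.19 became -0.02 with the mean of probe sets, an average that takes in the dimmer DYNC2H1 probe set. The other causes were not tested. The difference from genes of like vehicle level was -0.39 with bands by the mean of all arrays and -0.35 with 20 bands. The titles do not say that equal numbers pair the samples; over genes, the difference between replicates 1 and 2 correlated at 0.27 between groups. With the replicate block 27 members fell and 3 rose, and all 25 falls remained; the calls it added are the falls of BBS5 (adjusted p = 0.0164) and BBS12 (0.0438) and the rise of INPP5E (0.0207). All-gene falls went from 2794 to 3834 with it, to 1255 at the stricter threshold, to 1196 without vehicle replicate 1 and to 1237 without vehicle replicate 2; all-gene rises went from 2229 to 2805, 1298, 1267 and 1335. Without the dimmest genes 43 members were tested and 25 fell.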
